A study of Mus musculus with 2 samples.

Results

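The cells described here were tumour cells with almost no Epcam transcript that carried Prg4 or Grem1 transcripts, 324 of the 2123 tumour cells in the series. Epcam encodes an adhesion protein of epithelial cells, Prg4 encodes lubricin, a secreted mucin-like glycoprotein, and Grem1 encodes gremlin 1, a secreted antagonist of bone morphogenetic proteins (BMPs). Cells were taken from barcodes with at least 500 genes, 10000 to 60000 unique molecular identifiers (UMIs) and at most 15% mitochondrial UMIs, which left 6780 of 25865 barcodes. A tumour cell had at least 10 UMIs of the keratin genes Krt8 and Krt18, at most 10 UMIs of the leukocyte gene Ptprc, under 1% of its UMIs from Col1a1, Col1a2 and Col3a1, and under 0.05% from the endothelial genes Pecam1 and Cdh5. A Prg4-Grem1 cell was a tumour cell with at most 1 Epcam UMI, at least 5 UMIs of Prg4 and Grem1 together, and at most 1 UMI of Ralyl. An Epcam-high cell, the main class for comparison, was a tumour cell with at least 3 Epcam UMIs, and there were 826. The members were chosen on measured values of these 12 genes, so their levels are a description and carry no test.

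Both tumours grew from KPC cells, a pancreatic cancer line made from genetically engineered mice that carried Pdx-1-Cre, after orthotopic inoculation of mice. The inoculated cells held a hairpin targeting Zeb1 (KPC-shZEB1) or, as control, the hairpin labelled KPC-shV. Each group was 1 tumour, and both were dissociated together and sequenced with 10x 3' chemistry. The study states that the sequenced tumours came from gemcitabine-treated mice, which the labels of these samples do not give. With 1 library per group, mouse, tumour, library and hairpin cannot be told apart, no test was made, and ranges in parentheses are 95% intervals that cover counting error alone.

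Epithelial-mesenchymal transition is a programme in which carcinoma cells lose junction proteins such as E-cadherin and take on mesenchymal genes. ZEB1, SNAI1 and TWIST proteins are transcription factors known to drive it, and ZEB1 binds E-box sequences in the promoters of epithelial genes. Cells at the mesenchymal end often make matrix proteins that are otherwise typical of fibroblasts, which makes keratin levels and host-cell markers the way to tell such tumour cells from stroma.

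Zeb1, the target of the hairpin, was examined first. It was at 218 UMIs per 1000000 UMIs of the class (CPM) in Prg4-Grem1 cells of the library labelled KPC-shV. The library labelled KPC-shZEB1 gave 280.2 CPM there, a ratio of 1.29 (1.18–1.40). Further pairs of values keep this order, KPC-shV first. Epcam-high cells held 94.0 and 131 CPM. Neither class thus held less Zeb1 under the label KPC-shZEB1, and the libraries are called by their labels throughout.

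The Epcam promoter is shown because loss of Epcam defined the cells and the motif CAGGTG, with its reverse complement CACCTG, is the E-box that ZEB1 and SNAI1 are known to bind. Cldn7, which encodes a tight-junction claudin, is shown as a second epithelial gene with low levels in the cells. Grem1 is shown as a gene that defined them, and Fbn1, which encodes the matrix protein fibrillin 1, as a gene that was high in them. Each sequence is the 250 bases before a RefSeq transcript start (GRCm38.p6), read 5′ to 3′ on the gene's strand, with both motif strands in capitals. The windows are chr17:87635729-87635978 on the plus strand for Epcam, chr11:69965171-69965420 on the plus strand for Cldn7, chr2:113758649-113758898 on the minus strand for Grem1 and chr2:125506439-125506688 on the minus strand for Fbn1.
Epcam: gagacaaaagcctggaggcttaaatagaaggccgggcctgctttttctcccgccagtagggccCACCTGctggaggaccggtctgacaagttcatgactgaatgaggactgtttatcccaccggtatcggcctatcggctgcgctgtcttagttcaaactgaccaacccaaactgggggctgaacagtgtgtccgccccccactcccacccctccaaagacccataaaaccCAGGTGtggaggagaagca
Cldn7: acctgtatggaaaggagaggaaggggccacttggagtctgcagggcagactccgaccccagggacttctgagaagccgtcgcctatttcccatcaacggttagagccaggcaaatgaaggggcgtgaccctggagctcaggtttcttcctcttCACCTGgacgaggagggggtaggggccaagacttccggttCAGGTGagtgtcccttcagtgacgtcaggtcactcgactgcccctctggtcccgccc
Grem1: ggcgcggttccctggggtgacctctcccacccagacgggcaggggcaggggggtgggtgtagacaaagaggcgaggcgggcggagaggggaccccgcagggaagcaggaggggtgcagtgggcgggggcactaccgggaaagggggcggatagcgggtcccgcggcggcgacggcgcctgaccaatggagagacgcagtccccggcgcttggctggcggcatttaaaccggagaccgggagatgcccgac
Fbn1: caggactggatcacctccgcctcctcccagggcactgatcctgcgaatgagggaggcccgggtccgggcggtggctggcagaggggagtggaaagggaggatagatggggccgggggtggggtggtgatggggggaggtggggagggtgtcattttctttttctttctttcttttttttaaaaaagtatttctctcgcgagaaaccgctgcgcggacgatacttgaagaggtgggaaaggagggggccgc
Epcam and this Cldn7 start each held 2 matches, and Grem1 and Fbn1 held none. Of all 32851 RefSeq windows of this length, 17.2% held at least 1 match. Another Cldn7 start held no match. Among other genes whose windows were found, Mal, Muc4, Gpa33, Ifi202b and Myh14, which were lower in the cells, held none. Of the other lower genes, Phgr1 held 2, Ltf and Pigr held 1 each, and Lypd8 held 1 at one start and none at another. Of the higher genes, Dpt held 1, and Pde1a held 1 at one start and none at its others. Steap4, Fbln1, Ank, Rbfox1 and Tcf7l1, which were also higher, held none. The 4 windows printed are thus not a summary of the rest, and a match is a description of letters and not of binding.

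The first question was whether the cells were tumour cells, as their gates intended, or host cells. Cdkn2a, a cell cycle inhibitor gene that no gate used, was at 331 and 396 CPM in Prg4-Grem1 cells, beside 244 and 309 CPM in Epcam-high cells. It was at 22.2 and 29.9 CPM in collagen-high cells, those at or past the collagen limit with under 10 keratin UMIs, and at 14.2 and 23.7 CPM in Ptprc-positive cells, those with at least 5 Ptprc UMIs and at most 1 Krt8 and Krt18 UMI. Xist, the RNA of the inactive X chromosome, was at 43.9 and 83.1 CPM in Prg4-Grem1 cells and at 67.4 and 101 CPM in Epcam-high cells, against 542 CPM in collagen-high cells of each library and 603 and 608 CPM in Ptprc-positive cells. On both genes the Prg4-Grem1 cells lay with the Epcam-high tumour cells and apart from both host classes.

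The markers in the label were checked next. Prg4 was at 752 and 719 CPM in Prg4-Grem1 cells and at 62.6 and 28.8 CPM in Epcam-high cells, and Grem1 was at 368 and 394 CPM against 29.0 and 37.8 CPM. Both were used by the gates. Smoc1, Edil3 and Megf10, which no gate used, were also higher in Prg4-Grem1 cells than in the Epcam-high, collagen-high and Ptprc-positive classes of both libraries, and than in the other Epcam-low tumour cells, those with as little Epcam and Ralyl but under 5 UMIs of Prg4 and Grem1. Markers of other cell types were summed, with fibroblast markers described further on. The 4 Schwann cell markers summed to 1.63 and 2.97 CPM, and Sox10 was at 0 in both libraries. The 4 endothelial markers summed to 23.3 and 11.5 CPM. The 5 mesothelial markers summed to 30.1 and 73.2 CPM, beside 104 and 97.4 CPM in Epcam-high cells and 476 and 315 CPM in collagen-high cells. In Epcam-high cells 1 marker, Msln, made up 98.1 and 91.5 CPM of the sum. In collagen-high cells the top marker made up 466 and 307 CPM of the sum. No mesothelial marker was above 13.0 and 34.9 CPM in Prg4-Grem1 cells. Outside the top marker of each class, the mesothelial markers thus summed higher in Prg4-Grem1 cells than in Epcam-high or collagen-high cells. The part of mesothelial RNA in the genes that were higher was not tested. The 4 pericyte markers summed to 67.2 and 82.1 CPM, above the 26.1 and 40.5 CPM of Epcam-high cells and below the 153 and 131 CPM of collagen-high cells. The part of pericyte RNA in the genes that were higher was not tested. The 6 immune markers summed to 868 and 818 CPM, beside 1168 and 1014 CPM in Epcam-high cells and 7764 and 7366 CPM in Ptprc-positive cells.

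Prg4-Grem1 cells had medians of 33244 and 34776 UMIs and of 6415 and 6744 genes, and Epcam-high cells had medians of 32026 and 28601 UMIs, other Epcam-low tumour cells 27698 and 26332, collagen-high cells 28928 and 26654 and Ptprc-positive cells 13101 and 13346. Mitochondrial UMIs were 2.23% and 2.29% in the median Prg4-Grem1 cell. Doublet scores above 0.2 were found in 7 and 3 of the Prg4-Grem1 cells (2.94% and 3.49%). The libraries shared 46 barcode sequences among all barcodes and 0 among Prg4-Grem1 cells.

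Prg4-Grem1 cells made up 238 of 1019 tumour cells under the label KPC-shV (23.4%, 20.8–26.1) and 86 of 1104 under the label KPC-shZEB1 (7.79%, 6.28–9.53), a ratio of 0.334 (0.258–0.429). Of all barcodes within the quality limits they were 8.16% and 2.23%, a ratio of 0.273 (0.211–0.350). Over the same barcodes, Epcam-high cells were 11.6% and 12.7%, a ratio of 1.10 (0.951–1.26). The share of Prg4-Grem1 cells was lower on both denominators, while the Epcam-high share of all barcodes differed by less than counting error. Of tumour cells, Epcam-high cells were 33.1% and 44.3%, a ratio of 1.34 (1.16–1.54). The other Epcam-low tumour cells were also fewer, 34.1% and 26.2% of tumour cells, a ratio of 0.769 (0.655–0.901). Another Epcam-low class differed the other way: tumour cells with at most 1 Epcam UMI and 2 or more Ralyl UMIs were 0.883% and 11.9% of tumour cells. The limit on Ralyl took cells from the Prg4-Grem1 class in one library more than in the other, and without that limit the Prg4-Grem1 shares were 23.6% and 11.3%, a ratio of 0.481 (0.384–0.599).

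Prg4 and Grem1 were unevenly spread over the members. Prg4 had medians of 9 and 5.5 UMIs and maxima of 423 and 300.0 UMIs. Grem1 had a median of 6 UMIs in both, with maxima of 114 and 140. At least 5 UMIs of both genes were found in 82 of 238 cells (34.5%) and 18 of 86 cells (20.9%), so most members had passed through 1 of the genes. Prg4 alone reached 5 UMIs in 87 (36.6%) and 30 (34.9%) cells, Grem1 alone in 56 (23.5%) and 34 (39.5%), and neither alone in 13 and 4.

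At the edges of the gates, 17 and 10 members had exactly 5 UMIs of the pair, and 20 and 12 cells just outside had 4. A single Epcam UMI was found in 91 and 41 members, and 33 and 19 cells were left out for having 2. Just inside the Ralyl limit were 3 and 15 members with 1 UMI, and just outside were 2 and 39 cells. Prg4 and Grem1 were rarer in cells that kept Epcam, since 20 of 337 Epcam-high cells (5.93%) and 26 of 489 (5.32%) had 5 UMIs of the pair, against 240 of 594 (40.4%) and 125 of 506 (24.7%) of the tumour cells with at most 1 Epcam UMI.

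**Figure D1:**
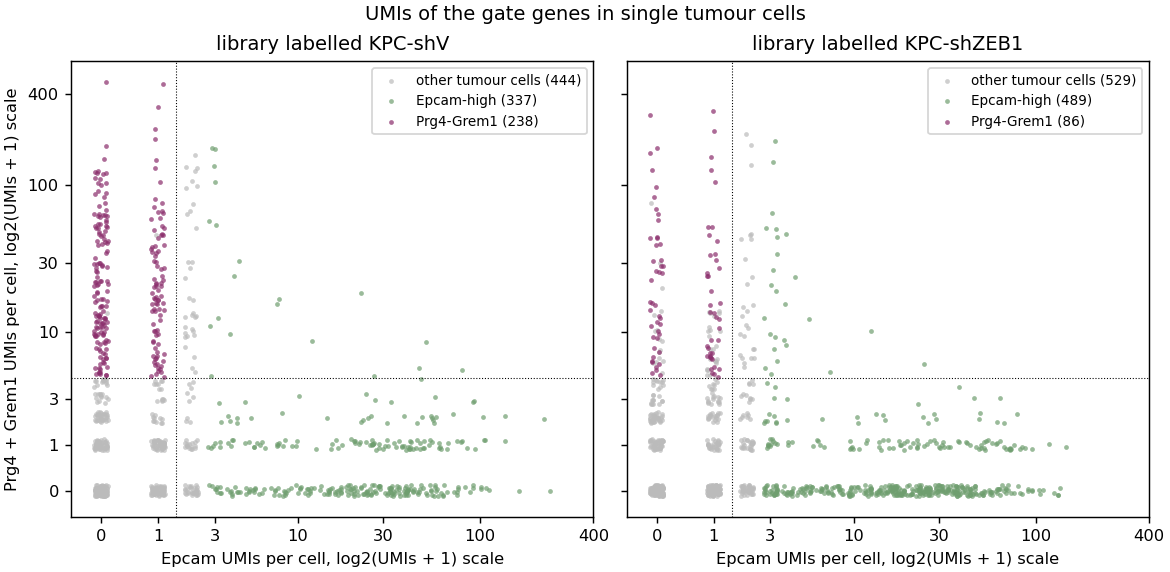
Each point is 1 tumour cell, with its Epcam UMIs on the x axis and its summed Prg4 and Grem1 UMIs on the y axis, both on a log2(UMIs + 1) scale with small jitter; dotted lines mark the gates. Cells high on both axes were few in both libraries, and the 238 and 86 Prg4-Grem1 cells fill the upper left corner.

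Smoc1, Edil3 and Megf10 were the markers that the gates did not use. Smoc1 (ENSMUSG00000021136, chromosome 12 from 81026808 to 81186414) encodes a secreted matricellular protein that antagonises BMP signalling. It was at 179.7 and 230.4 CPM in Prg4-Grem1 cells and at 20.99 and 29.6 CPM in Epcam-high cells, ratios of 8.56 (7.45–9.88) and 7.77 (6.89–8.77). Other Epcam-low cells were between with 66.4 and 61.0 CPM. Collagen-high cells had 5.88 and 4.83 CPM and Ptprc-positive cells 4.51 and 3.96 CPM. Its level in Prg4-Grem1 cells was above that of each host class. At least 5 Smoc1 UMIs were found in 76 of 238 (31.9%, 26.1–38.3) and 40 of 86 (46.5%, 35.7–57.6) Prg4-Grem1 cells, and in 3.56% and 4.50% of Epcam-high cells. No Ptprc-positive cell reached 5 UMIs, 0 of 215 and 0 of 173, which allows shares of up to 1.40% and 1.73% (3 counts of the total), at median depths of 13101 and 13346 UMIs.

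Edil3 (ENSMUSG00000034488, chromosome 13 from 88821472 to 89323223) encodes a secreted integrin ligand. Prg4-Grem1 cells held 191 and 278 CPM and Epcam-high cells 28.5 and 24.6 CPM, ratios of 6.72 (5.95–7.61) and 11.3 (9.99–12.8). Other Epcam-low cells held 86.6 and 122 CPM. Unlike Smoc1, Edil3 was also present in Ptprc-positive cells, at 49.3 and 43.9 CPM. At least 5 Edil3 UMIs were found in 86 of 238 (36.1%) and 35 of 86 (40.7%) Prg4-Grem1 cells, in 5.04% and 3.89% of Epcam-high cells and in 5.12% and 4.05% of Ptprc-positive cells.

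Megf10 (ENSMUSG00000024593) encodes a transmembrane receptor for the engulfment of apoptotic cells. It was at 115 and 111 CPM in Prg4-Grem1 cells and 17.2 and 21.9 CPM in Epcam-high cells, ratios of 6.71 (5.73–7.88) and 5.06 (4.34–5.91). Other Epcam-low cells held 60.6 and 51.0 CPM, and both host classes were under 5 CPM. At least 5 Megf10 UMIs were found in 76 (31.9%) and 24 (27.9%) Prg4-Grem1 cells. After each cell was thinned to 10000 UMIs, 56.3% and 53.5% of Prg4-Grem1 cells had a Megf10 UMI, against 8.01% and 14.7% of Epcam-high cells and 0.465% and 2.89% of Ptprc-positive cells. Thinned shares for Smoc1 were 50.4% and 59.3%, 12.8% and 16.0%, and 3.26% and 4.05% in the same order, and those for Edil3 were 51.7% and 54.7%, 11.9% and 12.3%, and 18.1% and 18.5%. No cell was too shallow to be thinned, and the shares of Prg4-Grem1 cells before thinning were 77.7% and 75.6% for Megf10, 63.0% and 72.1% for Smoc1 and 69.7% and 75.6% for Edil3. For Edil3 the thinned share in Epcam-high cells was below that in Ptprc-positive cells and above the 9.30% and 4.12% of collagen-high cells.

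The 3 markers were not carried together by every member. None of them reached 5 UMIs in 85 of 238 cells (35.7%) and 29 of 86 cells (33.7%), and all 3 did so in 22 (9.24%) and 6 (6.98%). Over all Epcam-low, Ralyl-low tumour cells, binned by their summed Prg4 and Grem1 UMIs, the levels of the markers differed between bins. In cells with no UMI of the pair, Smoc1 was at 54.2 and 56.3 CPM; in cells with 50 or more it was at 363 and 391 CPM, the latter from 16 cells. Without that thin bin the top value in the library labelled KPC-shZEB1 was 206 CPM, in cells with 15 to 49 UMIs. Megf10 ran from 43.8 to 169 CPM and from 38.0 to 147 CPM over the same bins, or to 136 CPM without the thin bin. Edil3 was at 50.2 and 99.8 CPM in cells with no UMI of the pair and at 201 and 211 CPM in cells with 5 to 14, and in the library labelled KPC-shV it was no higher in the bins above. Krt19, a keratin gene of ductal epithelium, ran the other way in the library labelled KPC-shV, from 412 to 39.0 CPM. In the library labelled KPC-shZEB1 it went from 429 to 75.01 CPM in cells with 15 to 49 UMIs, and was at 126 CPM in the thin bin. These are descriptions over cells that share a library and carry no test.

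To describe what else set the cells apart, the UMIs of every gene were summed over Prg4-Grem1 and over Epcam-high cells of each library. A gene was compared where it reached 50 CPM in either class in both libraries, which 4163 genes did, and was called where the log2 ratio with 1 CPM added was at least 1 in size and of one sign in both libraries. By this rule 165 genes were higher (3.96%) and 234 were lower (5.62%), genes of the gates included. A gene that reached 50 CPM only through the class where it was high had to differ, so counts over gene lists are descriptions. The median log2 ratio over all compared genes was 0.03 in the library labelled KPC-shV. No gene passed in opposite directions in both libraries.

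**Figure D2:**
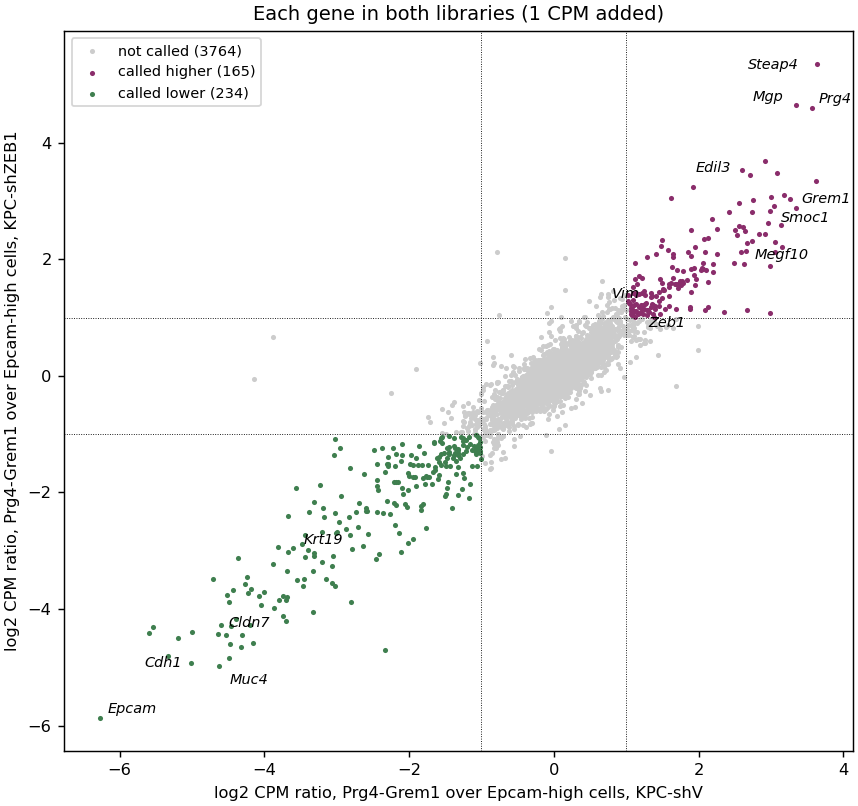
Each point is 1 of the 4163 genes compared, with its log2 CPM ratio of Prg4-Grem1 over Epcam-high cells in the library labelled KPC-shV on the x axis and in the library labelled KPC-shZEB1 on the y axis; dotted lines mark 2-fold. The 165 genes called higher (purple) and 234 called lower (green) lie along one diagonal, with Epcam at the lower end and Prg4, Mgp and Steap4 at the upper end.

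Epithelial genes were lower in the Prg4-Grem1 cells. Of 32 genes of epithelial junctions and identity, 22 could be compared, and 21 were lower and 0 higher, with median log2 ratios of -3.64 and -3.07, in classes that were themselves split on Epcam. Cdh1, which encodes E-cadherin, was at 16.7 and 18.1 CPM in Prg4-Grem1 cells and at 572 and 583 CPM in Epcam-high cells, log2 ratios of -5.02 and -4.93. The level in Prg4-Grem1 cells was below the 24.2 and 28.5 CPM of Ptprc-positive cells, which should lack the gene. Cdh1 reached 5 UMIs in 2 of 238 and 0 of 86 Prg4-Grem1 cells, where 0 of 86 allows at most 3.49% by the same limit. In Epcam-high cells 80.4% and 78.3% did so. Other Epcam-low cells held more Cdh1, at 51.5 and 50.4 CPM. The 1 gene of the list that was not called was Tjp1, which encodes the junction scaffold ZO-1, with log2 ratios of -0.17 and -0.55.

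Tight-junction, splicing and keratin genes of the list showed the same direction. Cldn7 was at 9.91 and 5.93 CPM against 272 and 149 CPM, and Cldn4, another claudin gene, was at 5.90 and 11.5 CPM against 179 and 139.65 CPM. Esrp1, whose product sets epithelial splice forms, was at 2.51 and 1.32 CPM against 77.9 and 65.3 CPM. Elf3, an epithelial transcription factor gene, had log2 ratios of -3.69 and -3.36. Krt19 and Krt7 were lower but not absent, with Krt19 at 72.0 and 132 CPM and Krt7 at 58.6 and 148 CPM, both above their levels in the collagen-high and Ptprc-positive classes. Krt8 was at 665 and 971 CPM against 2105 and 2132 CPM, although a keratin minimum was itself a gate.

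Markers of pancreatic tumour subtypes were also lower. In the classical subtype list 9 of 23 genes could be compared, and 7 were lower and 0 higher. They included Lgals4, a galectin gene, at 20.3 and 18.8 CPM against 379 and 476 CPM, and Ctse, the cathepsin E gene, at 6.02 and 6.26 CPM against 118 and 98.7 CPM. In the basal and squamous list 5 of 7 compared genes were lower and 1 was higher. The lower genes included Lama3 and Lamb3, which encode laminin chains of epithelial basement membranes. Lama3 had log2 ratios of -5.19 and -4.49, and Lamb3 was at 15.6 and 10.5 CPM against 102 and 85.9 CPM. The higher gene was Ereg, which encodes the EGF receptor ligand epiregulin, at 453 and 325 CPM against 77.4 and 59.96 CPM.

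Among the 15 genes with the lowest ratios were further products of the apical surface and mucosa. Mal, which encodes a protein of apical sorting, was at 2.51 and 3.30 CPM against 141 and 119 CPM. Muc4, a membrane mucin gene, was at 1.63 and 1.98 CPM against 64.1 and 92.5 CPM, and Pigr, the receptor gene for polymeric immunoglobulin, was at 1.63 and 3.30 CPM against 63.0 and 82.5 CPM. The rest were Esrp1, Phgr1, Gpa33, Cldn7, Ifi202b, S100a14, Atp10b, Ltf, Lypd8, Myh14, Lama3 and Cdh1. Levels of the 15 in Prg4-Grem1 cells ran from 1.32 CPM for Esrp1 to 18.1 CPM for Cdh1, and the ratio nearest 0 was a log2 ratio of -4.28 for Pigr.

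**Figure D3:**
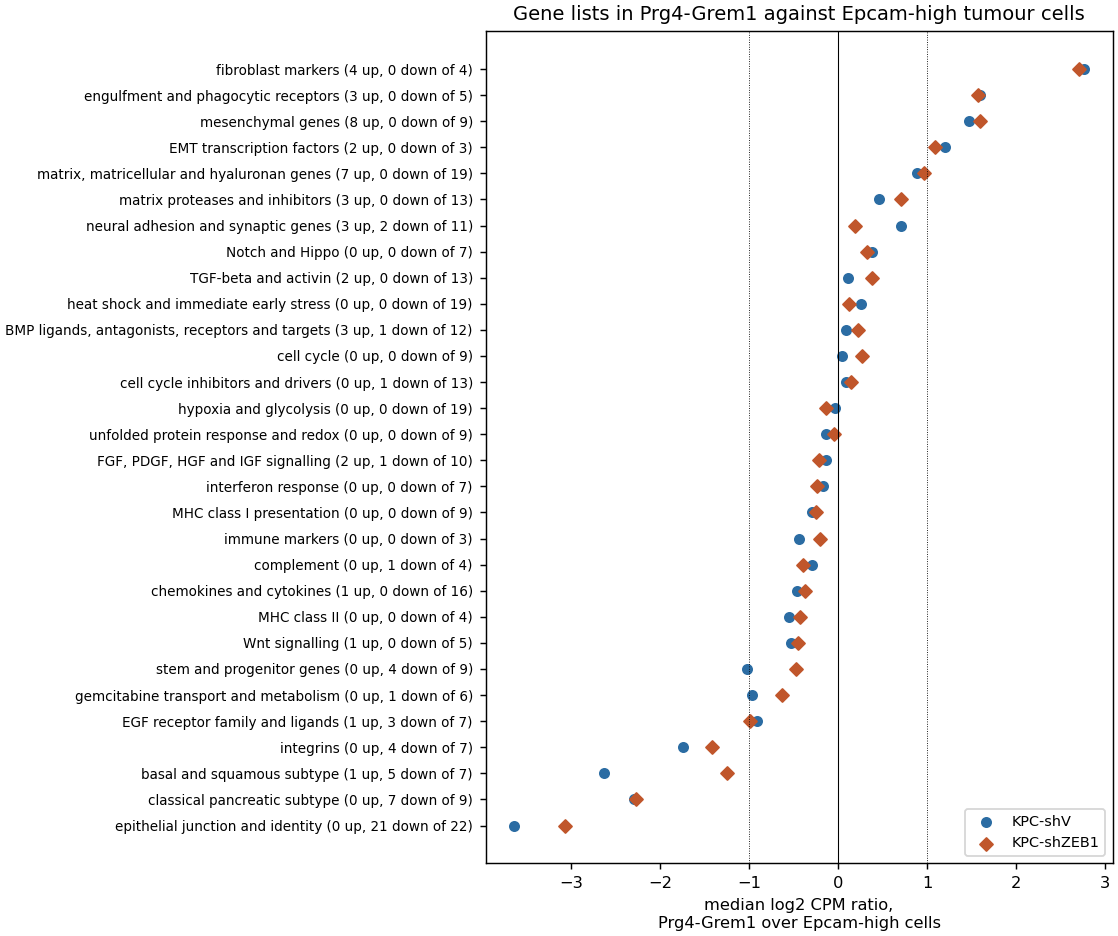
Median log2 CPM ratio of Prg4-Grem1 over Epcam-high cells for each gene list with at least 3 compared genes, in the library labelled KPC-shV (circles) and the library labelled KPC-shZEB1 (diamonds), with the numbers of genes called in brackets. Epithelial genes sit lowest, near -3, and fibroblast markers, engulfment receptors and mesenchymal genes sit highest.

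Mesenchymal genes were higher. Of 15 genes, 9 could be compared and 8 were higher, with median log2 ratios of 1.47 and 1.59. Vim, which encodes the intermediate filament vimentin, was at 1717 and 2053 CPM against 722 and 922 CPM, with ratios of 2.38 (2.31–2.44) and 2.23 (2.16–2.29). Fn1, the fibronectin gene, was at 4471 and 5178 CPM against 1614 and 1643 CPM, and Itga5, which encodes a subunit of the fibronectin receptor, was at 248 and 261 CPM against 75.5 and 73.5 CPM. The others called were Sparc, Lgals1, Acta2, Ncam1 and Axl. Over the other Epcam-low tumour cells, a comparison described further on, Acta2 was higher, while Vim, Fn1, Itga5, Lgals1, Ncam1 and Axl were not called.

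Of 7 transcription factor genes of the transition, 3 could be compared and 2 were higher, Zeb1 and Twist2. Zeb1 had log2 ratios of 1.20 and 1.09 over Epcam-high cells. Without its 5 highest cells, an alternative chosen after the data were seen, the value nearer 0 was 0.94, under the 2-fold limit, and other Epcam-low cells held nearly as much, 194 and 207 CPM. Twist2 was at 181 and 148 CPM in Prg4-Grem1 cells against 29.2 and 32.9 CPM in Epcam-high cells, ratios of 6.18 (5.47–6.99) and 4.49 (3.94–5.11). Collagen-high cells held only 13.3 and 25.4 CPM of Twist2. Zeb2 was not called, at 266 and 299 CPM against 169 and 212 CPM, and Ptprc-positive cells held 2306 and 1991 CPM of it. Snai1 was under the minimum, at 35.0 and 21.1 CPM against 5.61 and 2.92 CPM. Twist1, Snai2 and Prrx1 were under 21 CPM in Prg4-Grem1 cells.

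The BMP and TGF-beta pathways were described by role. Of 37 BMP genes 12 could be compared, and the genes called were the antagonist Smoc1, Fstl1, which encodes a follistatin-like secreted protein, and Id3 as higher, and Id2 as lower. Fstl1 was at 139 and 219.85 CPM against 36.5 and 51.8 CPM. The 3 ID genes, whose transcripts are known targets of BMP signalling, did not move together. Id3 was at 148 and 108 CPM against 46.6 and 25.7 CPM, Id2 at 67.5 and 53.4 CPM against 169.7 and 129.7 CPM, and Id1 at 88.1 and 44.2 CPM against 147 and 120.05 CPM, where only the library labelled KPC-shZEB1 passed 2-fold. Bmpr1a, a receptor gene, was level, with log2 ratios of 0.11 and -0.06. In the TGF-beta and activin list 2 of 13 compared genes were higher and none lower. They were Tgfbr3, which encodes the co-receptor betaglycan, at 201 and 206 CPM against 21.9 and 33.4 CPM, and Ltbp2, which encodes a latent TGF-beta binding protein of microfibrils, at 148 and 218 CPM against 34.3 and 41.7 CPM.

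Integrin and matrix genes were described next. Of 17 integrin genes 7 could be compared and 4 were lower. Itga6 and Itgb4, which encode the laminin receptor of hemidesmosomes, were at 139 and 135 CPM against 480.1 and 492 CPM and at 8.91 and 13.5 CPM against 71.5 and 88.9 CPM. Itgb1, the common beta subunit gene, was not called, with log2 ratios of 0.03 and 0.32. In the matrix list 7 of 19 compared genes were higher and none lower. These were Edil3, Spp1, Nid1, Col4a1, Col4a2, Col6a1 and Col6a2. Spp1, which encodes osteopontin, was at 15478 and 11734 CPM against 5799 and 4557 CPM, and Col4a1, a basement membrane collagen gene, was at 249 and 285 CPM against 109.9 and 107 CPM. Among proteases and their inhibitors 3 of 13 were higher, Timp1, Timp3 and the aggrecanase gene Adamts5. Among engulfment receptors 3 of 5 were higher, Megf10, the receptor tyrosine kinase gene Axl at 164 and 171 CPM against 46.9 and 56.0 CPM, and the endocytic receptor gene Lrp1 at 119 and 146 CPM against 38.7 and 48.5 CPM.

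The 15 genes with the highest ratios, apart from the gate genes, included matrix and secreted products, membrane proteins and transcription and splicing factors. Mgp, which encodes matrix Gla protein, an inhibitor of calcification, was at 1221 and 2687 CPM against 119 and 106 CPM, ratios of 10.2 (9.67–10.9) and 25.4 (24.1–26.8). Its 5 highest cells held 21.6% and 44.9% of the UMIs. Ank, which encodes a pyrophosphate transporter that also restrains mineralisation, was at 421 and 683 CPM against 54.6 and 51.8 CPM. Fbn1 was at 331 and 371 CPM against 40.6 and 43.0 CPM, and Fbln1, the fibulin 1 gene, at 118 and 124 CPM against 11.3 and 14.2 CPM. Tcf7l1, a transcription factor gene of Wnt signalling, was at 166 and 178 CPM against 20.4 and 27.9 CPM, and Rbfox1, which encodes a splicing factor known from neurons and muscle, at 257 and 179.97 CPM against 37.7 and 24.7 CPM. The remaining genes were Steap4, Angpt1, Pde1a, Smoc1, Dpt, Antxr1, Mrc2, Edil3 and Lum. Steap4 rested on few cells, since 48.0% and 94.0% of its UMIs were in the 5 highest cells.

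**Figure D4:**
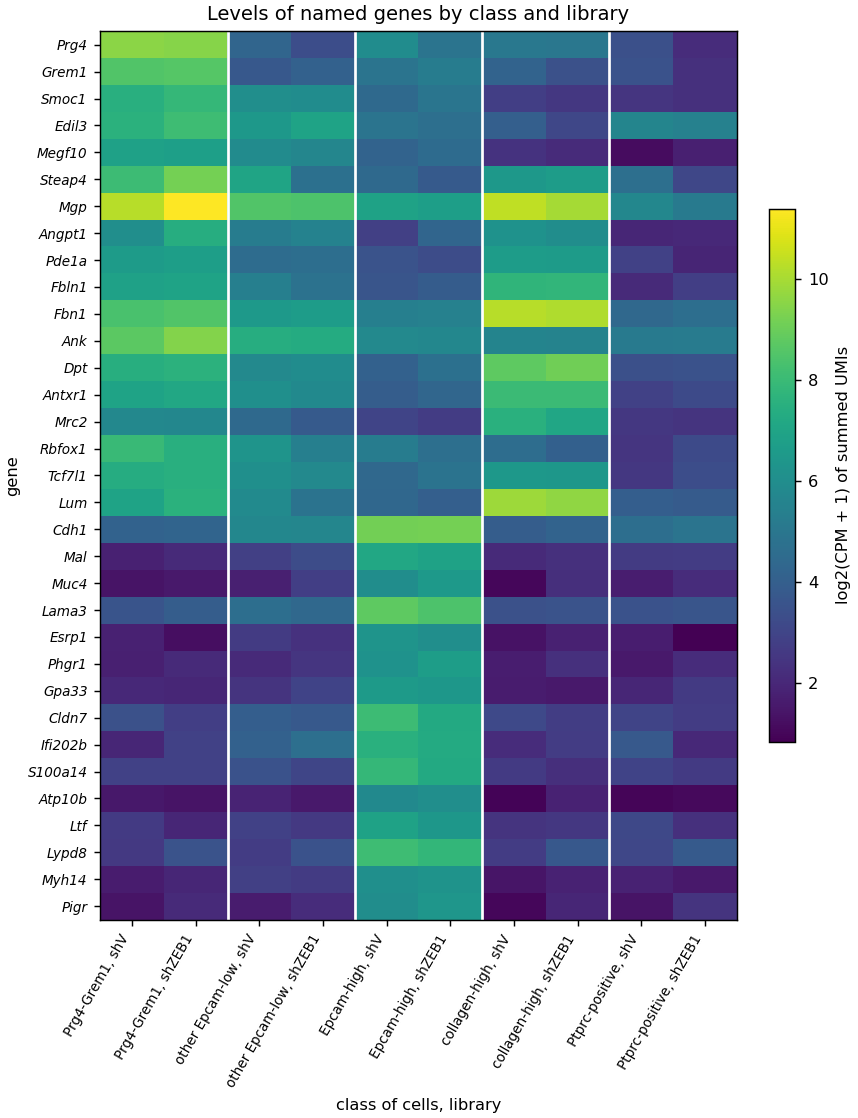
Levels of the 5 markers and of the 15 genes with the highest and the 15 with the lowest ratios, as log2(CPM + 1) of UMIs summed over each class and library. Among the 5 classes drawn, Smoc1, Megf10, Ank and Rbfox1 are brightest in the Prg4-Grem1 columns, whereas Fbn1, Dpt and Lum are brightest in the collagen-high columns.

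Fibroblast markers moved with these genes and are set beside them. All 4 compared markers, Dcn, Lum, Dpt and Col6a1, were higher in Prg4-Grem1 than in Epcam-high cells, and the fifth, Pdgfra, was under the minimum. The 5 summed to 885 and 954 CPM in Prg4-Grem1 cells, 125 and 131 CPM in Epcam-high cells, 401 and 263 CPM in other Epcam-low cells and 5295 and 4985 CPM in collagen-high cells, with none at 0. Dcn, which encodes the proteoglycan decorin, was at 372 and 241 CPM against 3077 and 2803 CPM in collagen-high cells. Of the 165 genes called higher, 84 were higher in collagen-high than in Prg4-Grem1 cells in both libraries, 65 were lower and 16 were mixed. Fbn1, Dpt, Lum and Fbln1 were among those higher in collagen-high cells, at 1222 and 1110 CPM for Fbn1. Ank, Rbfox1, Twist2, Smoc1 and Megf10 were lower there, at 47.6 and 45.9 CPM for Ank and 23.5 and 16.0 CPM for Rbfox1.

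Restriction to cells with no Xist UMI, an alternative chosen after the data were seen, left 89 and 18 Prg4-Grem1 cells. Of the values from both libraries, the one nearer 0 was then a log2 ratio of 2.76 for Dcn, 2.96 for Lum, 2.60 for Dpt, 3.71 for Smoc1 and 4.37 for Mgp. In all cells the corresponding values were 2.44, 2.60, 2.89, 2.92 and 3.35. Vim went under the 2-fold limit, to 0.94. The part of fibroblast RNA in the levels of these genes was not tested.

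Receptors and ligands outside these pathways split. Fgfr1, a fibroblast growth factor receptor gene, was at 183 and 201 CPM against 46.6 and 42.5 CPM, whereas Met, the receptor gene for hepatocyte growth factor, was at 58.1 and 70.9 CPM against 152 and 184 CPM. In the EGF receptor family list Ereg was higher and Tgfa, Areg and Erbb3 were lower, and Erbb3 was at 3.76 and 1.98 CPM against 61.1 and 53.9 CPM. Among 16 compared chemokine and cytokine genes only Ccl2, which encodes a monocyte attractant, was called, at 363 and 488 CPM against 105 and 156 CPM. Ptprc-positive cells held 955 and 681 CPM of it. Of 9 compared stem and progenitor genes 4 were lower, Prom1, Aldh1a3, Cd24a and Klf5. Prom1, which encodes CD133, was at 101 and 113 CPM against 380.2 and 421 CPM.

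Of 11 compared neural adhesion and synaptic genes 3 were higher and 2 lower. Pcdh9, a protocadherin gene, was at 343 and 266 CPM against 53.1 and 120.3 CPM, and Slit3, which encodes a guidance ligand, at 72.8 and 106 CPM against 31.5 and 46.2 CPM. Collagen-high cells held 2896 and 2891 CPM of Slit3, and 56.2% and 74.5% of its UMIs in Prg4-Grem1 cells were in 5 cells. The third was Pcdh7. Cadm1, a cell adhesion molecule gene, was lower, at 169.6 and 168 CPM against 442 and 355 CPM, as was the semaphorin gene Sema3c. In the Wnt list Tcf7l1 was the 1 gene called of 5.

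Other lists gave few or no calls. No gene was called among 19 hypoxia and glycolysis genes, 19 heat shock and early stress genes, 9 cell cycle genes, 9 class I and 4 class II antigen presentation genes, 7 interferon genes, 7 Notch and Hippo genes and 9 unfolded protein response genes. The median log2 ratios of these lists lay between -0.55 and 0.38 in both libraries. Of 13 compared cell cycle inhibitors and drivers only Ccnd1, the cyclin D1 gene, was called, at 114 and 147 CPM against 312 and 302 CPM. Nt5e, which encodes the ectonucleotidase CD73, was the 1 gene called of 6 in the gemcitabine list, at 13.8 and 20.8 CPM against 113 and 89.5 CPM. In the complement list Clu, the clusterin gene, was lower, at 1268 and 1047 CPM against 2657 and 3078 CPM.

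A comparison with the other Epcam-low cells, which also had at most 1 Epcam UMI, addressed what differed besides Epcam. Of 3974 genes compared, 44 were higher (1.11%) and 54 lower (1.36%) in both libraries. Of the genes called against Epcam-high cells, 44 of the 165 higher (26.7%) and 36 of the 234 lower (15.4%) were called the same way here. The higher ones included Mgp, at 1221 and 2687 CPM against 370.5 and 352 CPM, Ank at 421 and 683 CPM against 168 and 159.8 CPM, and Smoc1, Edil3, Dcn, Fbn1, Fbln1, Rbfox1, Tcf7l1, Pde1a and Ereg. Some of these were as high in the 9 and 131 Ralyl-positive Epcam-low cells, where Rbfox1 was at 199 and 214 CPM and Pde1a at 115 and 93.0 CPM, against 257 and 179.97 CPM and 98.4 and 108 CPM in Prg4-Grem1 cells. Smoc1 was lower there, at 24.6 and 35.0 CPM, and Ank at 134 and 119 CPM. Genes lower in Prg4-Grem1 than in other Epcam-low cells included Cdh1, Cldn3, Krt19, Krt20, Elf3, Lgals4, Itga2, Itga6, Met and Id2, and also the macrophage genes Lyz2, C1qc, Ctss, Mrc1, Pf4, Selenop, Cd86 and Ccl8. Krt19 was at 72.0 and 132 CPM against 343 and 357 CPM in the other Epcam-low cells, and Itga6 at 139 and 135 CPM against 386 and 318 CPM. The other Epcam-low cells were thus between Epcam-high and Prg4-Grem1 cells on these epithelial genes. The genes were chosen as lower in Prg4-Grem1 than in other Epcam-low cells, so that side of the order was fixed. Jup, a gene of the epithelial list, was not called here, with log2 ratios of -0.29 and -0.14. Zeb1, Vim, Megf10, Fn1, Itga5, Lgals1, Ncam1 and Axl were not called between the Epcam-low classes, with Vim at 1461 and 1621 CPM in the other Epcam-low cells. The other Epcam-low cells also held more acinar transcripts, with the 4 acinar markers at 196 and 1489 CPM against 26.2 and 141 CPM, and the 6 immune markers at 1469 and 2029 CPM against 868 and 818 CPM. The part of these transcripts in the lower calls was not tested.

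Members led by Prg4 and members led by Grem1 were compared with each other, with genes named after their values were seen. Prg4 exceeded Grem1 in 148 and 44 cells, and Grem1 exceeded Prg4 in 89 and 41 cells. Of 3848 genes, 9 were higher (0.234%) in the Prg4-led cells and 8 (0.208%) in the Grem1-led cells in both libraries, Prg4 and Grem1 included. Mgp was at 1508 and 3994 CPM in Prg4-led cells and 753 and 1309 CPM in Grem1-led cells. Lbp, which encodes a lipopolysaccharide-binding protein, was at 224 and 378 CPM against 63.2 and 82.6 CPM. On the side of Grem1, Cdh13, which encodes T-cadherin, was at 499 and 441 CPM against 244 and 131 CPM, and Cacna2d1, a calcium channel subunit gene, at 51.7 and 157 CPM against 6.23 and 8.95 CPM. The fibroblast marker Pdgfra was also higher in Prg4-led cells, at 57.9 and 129 CPM against 26.7 and 43.4 CPM. Cdh1, Vim, Zeb1 and Megf10 differed by less than 2-fold between Prg4-led and Grem1-led cells in both libraries. Smoc1 and Edil3 passed 2-fold in 1 library each. Smoc1 was at 232 against 92.9 CPM under the label KPC-shV, and Edil3 at 380 against 171 CPM under the label KPC-shZEB1, higher in Prg4-led cells.

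The last comparison was between the libraries, within Prg4-Grem1 cells. Of 4198 genes with at least 50 CPM in either library, 77 were at least 2-fold higher (1.83%) and 12 at least 2-fold lower (0.286%) in the library labelled KPC-shZEB1. In Epcam-high cells the counts were 51 and 16 of 4188. The fewer Prg4-Grem1 cells of that library make single cells weigh more, and several of the highest ratios came from a few cells. Krt79, a keratin gene, went from 0.502 to 70.9 CPM, but 83 of 86 cells had none and 1 cell held 211 UMIs. Il5ra, the interleukin 5 receptor gene, went from 2.51 to 61.6 CPM with 90.9% of the UMIs in 5 cells. Matn4, Rgs20, Tnc and H19 had 73.5% to 93.0% of their UMIs in 5 cells. Zfp804b, a zinc finger gene, was spread wider, at 3.01 and 139 CPM in Prg4-Grem1 cells and 70.1 and 145 CPM in Epcam-high cells. It reached 5 UMIs in 1 of 238 and 13 of 86 (15.1%, 8.30–24.5) Prg4-Grem1 cells. When the 5 highest cells of each gene were left out, an alternative chosen after the data were seen, 30 genes were higher and 26 lower.

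Of the markers that no gate used, Smoc1 and Edil3 were higher in the library labelled KPC-shZEB1, with ratios of 1.28 (1.17–1.40) and 1.45 (1.33–1.58), and Megf10 had a ratio of 0.963 (0.848–1.09). These ranges count UMIs and not cells. After thinning, 50.4% (43.9–56.9) and 59.3% (48.2–69.8) of Prg4-Grem1 cells had a Smoc1 UMI. For Edil3 the shares were 51.7% (45.1–58.2) and 54.7% (43.5–65.4), so over cells the ranges of both genes overlapped between the libraries. Grem1 and Prg4 were held by the gate in Prg4-Grem1 cells and had CPM ratios of 1.07 (1.00–1.15) and 0.956 (0.910–1.00). The log2 ratio of Prg4 in Epcam-high cells was -1.09. The epithelial list had a median log2 ratio of -0.08 over 6 compared genes, of which Krt7 was higher. Mgp, at 1221 and 2687 CPM, and S100a4, which encodes a calcium-binding protein of motile cells, at 77.0 and 277 CPM, were higher in the library labelled KPC-shZEB1. In Epcam-high cells neither was higher, with Mgp at 119 and 106 CPM and S100a4 at 69.0 and 67.7 CPM, and the difference between the classes was not tested. Per Prg4-Grem1 cell, Mgp had medians of 6 and 8 UMIs and maxima of 528 and 1552 UMIs. It reached 5 UMIs in 52.9% and 57.0% of these cells, so its CPM difference between the libraries rested in part on few cells.

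Cntn5, which encodes a neural adhesion molecule of the contactin family, had the lowest ratio. It was at 489 and 76.1 CPM in Prg4-Grem1 cells, a ratio of 0.156 (0.136–0.178), and at 151 and 86.1 CPM in Epcam-high cells. At least 5 Cntn5 UMIs were found in 68 of 238 (28.6%, 22.9–34.8) and 6 of 86 (6.98%, 2.60–14.6) Prg4-Grem1 cells, and 90.9% of its UMIs in the latter were in 5 cells. Other Epcam-low cells reached it in 26.2% and 13.8% and Ptprc-positive cells in 0 of 215 and 0 of 173. Pcdh7, a protocadherin gene, was at 399.9 and 137 CPM in Prg4-Grem1 cells, with a ratio of 0.342 (0.308–0.379), and at 49.3 and 64.3 CPM in Epcam-high cells. It reached 5 UMIs in 86 of 238 (36.1%) and 14 of 86 (16.3%) Prg4-Grem1 cells. Both genes did so in 31 of 238 and 0 of 86 cells, where 3 counts of the total allow up to 3.49%.

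All 5 compared antigen presentation genes of class II were higher in the library labelled KPC-shZEB1. Cd74, which encodes the invariant chain, was at 309 and 819 CPM, H2-Ab1 at 117 and 348 CPM and H2-Eb1 at 131 and 284 CPM in Prg4-Grem1 cells. Cd74 was also higher in every other class, at 470.4 and 1239 CPM in Epcam-high cells, 197 and 689 CPM in collagen-high cells and 4662 and 8231 CPM in Ptprc-positive cells. The median Prg4-Grem1 cell held 7 and 23 Cd74 UMIs. Other leukocyte transcripts also followed the library in both tumour classes. Lyz2, the lysozyme gene of myeloid cells, was higher, at 215 and 451 CPM in Prg4-Grem1 and 258 and 596 CPM in Epcam-high cells. S100a9, a neutrophil gene, was lower, at 409.5 and 204 CPM and at 556 and 235 CPM. Ptprc was at 0 in 70 of 238 (29.4%) and 11 of 86 (12.8%) Prg4-Grem1 cells. The part of leukocyte RNA in the class II values was not tested.

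Acinar transcripts also followed the library in both tumour classes. Prss2, a trypsinogen gene, was at 11.5 and 63.6 CPM in Prg4-Grem1 cells and 16.4 and 357 CPM in Epcam-high cells, and Ctrb1, a chymotrypsinogen gene, at 19.9 and 106 CPM and at 21.9 and 791 CPM. Ptprc-positive cells, which do not make these enzymes, held 9.34 and 76.7 CPM of Prss2, so the Prss2 value in Prg4-Grem1 cells was below this background in the library labelled KPC-shZEB1. Hspa1b, an inducible heat shock gene, was the 1 gene called of 19 compared heat shock and early stress genes, and was lower, at 367 and 125 CPM in Prg4-Grem1 cells and 419 and 165 CPM in Epcam-high cells. Abcb1b, a drug efflux transporter gene, was at 609 and 302 CPM in Prg4-Grem1 cells, a ratio of 0.495 (0.461–0.532), and at 239.85 and 158 CPM in Epcam-high cells. Per Prg4-Grem1 cell, Abcb1b had medians of 3 and 4 UMIs and maxima of 886 and 178 UMIs. It reached 5 UMIs in 40.3% and 43.0% of these cells, so its CPM difference rested in part on few cells.

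**Figure D5:**
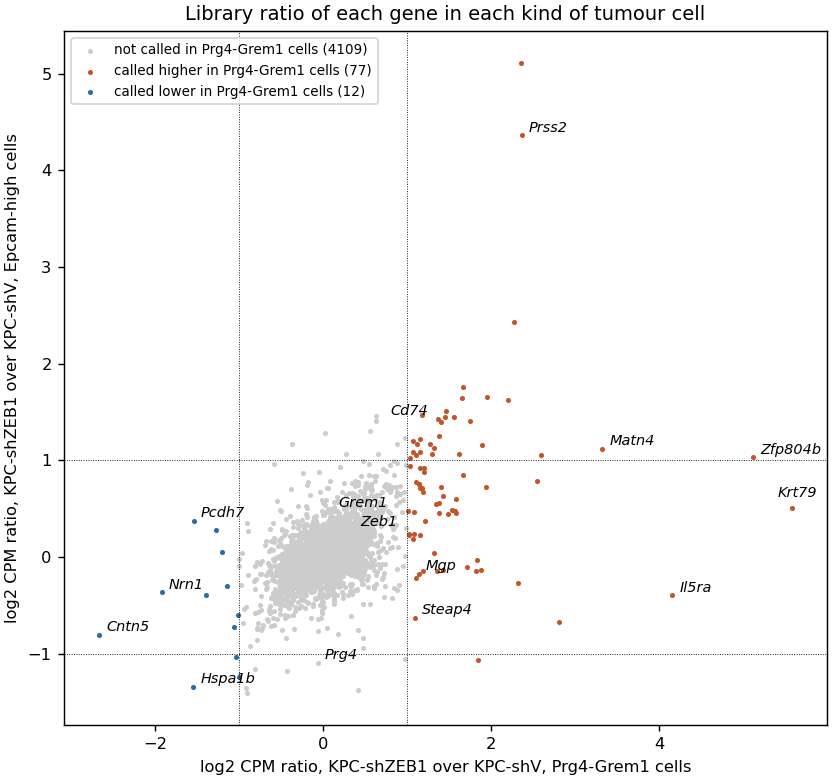
Each point is 1 of 4198 genes, with its log2 CPM ratio between the libraries (label KPC-shZEB1 over label KPC-shV) in Prg4-Grem1 cells on the x axis and in Epcam-high cells on the y axis; dotted lines mark 2-fold. Cd74 and Prss2 are high on both axes, Hspa1b is low on both, and Cntn5 and Pcdh7 lie left of the vertical line at -1 but between the horizontal lines.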

How the data were processed

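Single-cell RNA was measured in 2 mouse tumour samples, 1 per group. The authors deposited raw counts of UMIs per gene and barcode, made with Cell Ranger 7.0.1 against mm10, per the file headers and the submitters' processing notes. Whether intronic reads were counted is not given in the sources used here. Of 32285 gene identifiers, 32158 were in the GENCODE annotation of GRCm38, which gave coordinates.

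Cells were gated on UMIs as described above. The members, gates, gene lists and comparisons were chosen with earlier results of these data known. Doublets were scored with Scrublet in scanpy 1.11.5 and none were removed, except in an alternative with scores above 0.2.

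UMIs were summed per class and library and given per 1000000 UMIs (CPM). No test was made, since cells are not replicates and each group is 1 library. Shares have exact Clopper-Pearson intervals, the limit given for a count of 0 is 3 counts of the total, and CPM ratios have exact intervals conditional on the summed UMIs. Log2 ratios have 1 CPM added, which understates changes of low genes. A gene needed 50 CPM in either group, in both libraries for the comparison of classes. Genes named in the text are those of the gates, markers and lists, the 15 highest and 15 lowest in the class comparison ranked by the library value nearer 0, and the 10 highest and 10 lowest between libraries, predicted genes left out. Lbp, Cdh13, Cacna2d1 and the macrophage genes were named after their values were seen. Shares were also computed after thinning each cell to 10000 UMIs. Some items are not reported here. Promoter windows matched 20 of 35 genes asked. The gene comparison was tested on simulated data. Python 3.11.15, numpy 2.4.6, pandas 2.3.3, scipy 1.17.1 and matplotlib 3.10.9 were used.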

Additional observations from a re-analysis of the deposited data

Results flagged for a closer look

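Barcodes above 60000 UMIs, which entered only an alternative with no upper limit, also held cells that met the gates. Under the label KPC-shV, 38 of 249 tumour cells above that limit were Prg4-Grem1 cells (15.3%, 11.0–20.3), and under the label KPC-shZEB1 10 of 173 (5.78%, 2.81–10.4). These cells were singled out because they lie outside the main measurement, and barcodes of this depth can hold more than 1 cell.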

How the results depend on the processing

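The share of Prg4-Grem1 cells depended on the gates, and its ratio between libraries did so less. In the library labelled KPC-shV the share was 16.8% with gates applied after thinning to 10000 UMIs, 27.0% with a minimum of 3 UMIs of the pair, 17.5% with 10, 14.4% with Epcam at 0 and 19.5% with at least 20 Krt8 and Krt18 UMIs. In the library labelled KPC-shZEB1 it was 6.16%, 10.3%, 5.07% and 4.08% under the first 4 of these and 11.3% with no limit on Ralyl, where the ratio moved to 0.481. Under the other alternatives the ratio was 0.283 to 0.383, and against Epcam-high cells, gene counts other than those that follow were 111 to 237 higher and 209 to 293 lower.

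With a minimum of 10 CPM in place of 50, 355 genes were higher and 549 lower than in Epcam-high cells, and 297 higher and 70 lower between the libraries. With no minimum the counts were 517 and 937, and 835 and 276. More genes were compared in both. Between the libraries, genes lower in the library labelled KPC-shZEB1 numbered 7 with 10 CPM added, 105 with Ptprc-positive levels subtracted, 28 with at least 10 UMIs of the pair and 22 with thinned gates. In cells with no Xist UMI, an alternative chosen after the data were seen like the next, 155 genes were higher and 97 lower, from 89 and 18 cells. With the 5 highest cells of each gene left out, 30 were higher and 26 lower. The library direction of Steap4 reversed, to a log2 ratio of -1.19 with doublets removed and -1.93 without its 5 highest cells. In cells with no Xist UMI, Col28a1 turned to 0.87, Slc25a40 to 0.85 and Top2a to -0.030. The causes of these moves were not tested. Zeb1 fell under the 2-fold limit, to a log2 ratio of 0.94 over Epcam-high cells, without its 5 highest cells.

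The 86 members in the library labelled KPC-shZEB1 limit the precision of its values. No paired analysis was possible because each group had 1 library and the labels carry no replicate numbers.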
